A study of Homo sapiens with 12 samples.

Results

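The comparison described here set OE21 cells given siRNA against STAT3 against OE21 cells given a negative control siRNA. OE21 is a human cell line derived from an esophageal squamous cell carcinoma. The members were the 3 arrays titled as OE21 siRNA and the 3 titled as OE21 control, 6 of the 12 arrays in the series. The other 6 arrays hold the same pair of treatments in OE33, a line from a Barrett's adenocarcinoma. Both OE21 groups were unmodified cells of this 1 line, seeded in 24-well plates and transfected with the reagent siPORT NeoFX. Both groups had 2 transfections. One group received the siGENOME SMARTpool against STAT3, a mix of 4 siRNA sequences, at 100 nM. The other received Silencer negative control siRNA, a different product, for which no dose or number of sequences is recorded. The groups thus differ in siRNA product as well as in target, and effects of these cannot be told apart. RNA was taken 72 h after the first transfection, and the design text calls the 3 replicates independent experiments. The effect of STAT3 siRNA in this line was the stated question. Expression was described across 11179 genes of the 20046 that the array annotation names, namely those with a probe detected (detection p under 0.01) on at least 3 of the 6 arrays.

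STAT3 is a latent transcription factor of the cytoplasm. Receptors of the interleukin 6 family, which share the subunit gp130 (IL6ST), activate Janus kinases that phosphorylate STAT3. The phosphorylated dimer enters the nucleus and binds gamma-activated sequences, palindromes with the core TTCNNNGAA. Its textbook targets include its own feedback inhibitor SOCS3, cyclin D1, MYC, survival genes of the BCL2 family and acute phase genes. In squamous epithelia STAT3 is known for its part in keratinocyte growth and migration.

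Between 18488 and 19149 probes were detected per OE21 array, 39.1% to 40.5% of all probes. Levels are log2 intensities after background correction and quantile normalisation, and differences are siRNA minus control on that scale, so that 1 unit is a doubling. A gene was called when its limma p-value, adjusted over all genes by the Benjamini-Hochberg method, was under 0.05. The 6 arrays did not group by treatment on the first principal component, which held 53.6% of the variance. A first set scored below 0, with control 1 at -0.35, siRNA 1 at -0.36 and siRNA 2 at -0.51. A second set scored above 0, with control 2 at 0.36, control 3 at 0.42 and siRNA 3 at 0.43. The labels name no batch that follows these sets. The second component, with 22.7%, had the 3 control arrays at -0.60, -0.02 and -0.46 and the 3 siRNA arrays at 0.34, 0.22 and 0.52.

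STAT3, the targeted gene (chr17:42313324-42388442, GRCh38.p14), was lower on every siRNA array. Its brightest probe read 9.23, 8.90 and 9.24 on the control arrays and 6.76, 6.77 and 7.47 on the siRNA arrays. The groups did not overlap, and siRNA 3 kept the highest level of the siRNA arrays. The difference was -2.12 (SE 0.23), which leaves 22.9% of the control level (95% confidence interval 15.7% to 33.5%). STAT3 ranked first of the 11179 genes both by p-value and by the size of the decrease, yet its adjusted p was 0.278. Another STAT3 probe read 7.81, 7.64 and 7.94 in control cells against 5.86, 5.86 and 5.67 after the siRNA. On that probe siRNA 3 was the lowest siRNA array, so the probes did not order the siRNA arrays alike. With each of 14682 probes tested on its own, this probe was the 1 called (0.00681%), at -2.0 (SE 0.15) with adjusted p = 0.0382. The dimmest STAT3 probe read 7.56, 6.86 and 7.12 against 4.92, 5.19 and 5.43, again -2.0. In RNA of whole cultures, a lower level in every cell and fewer cells that express the gene cannot be told apart.

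**Figure D1:**
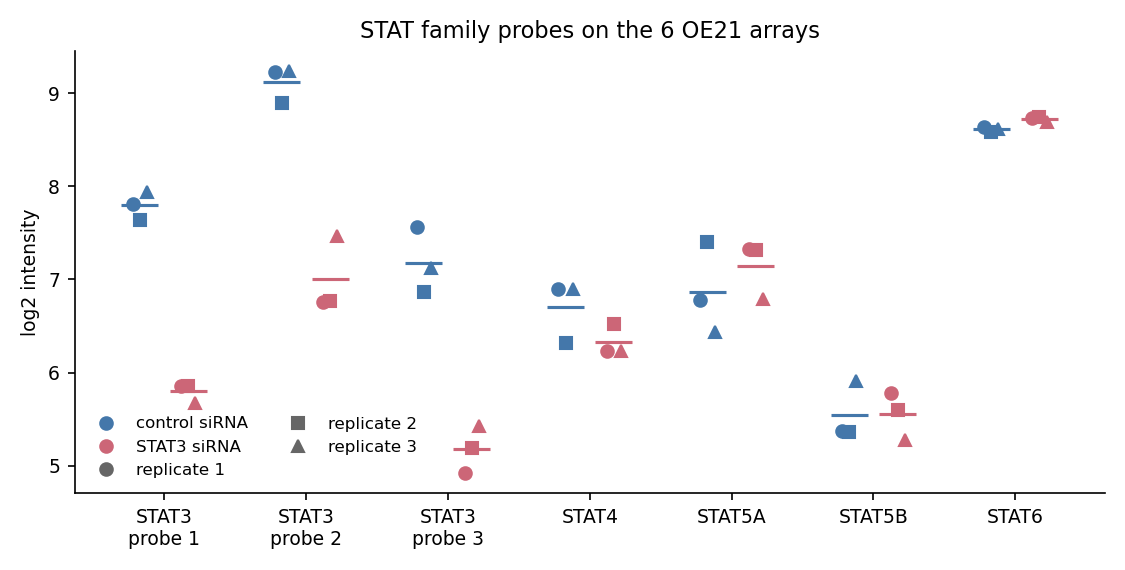
Log2 intensity (y axis) of each STAT family probe (x axis) on the 6 OE21 arrays, with blue for control siRNA, red for STAT3 siRNA, symbols for replicates and bars for group means. The 3 STAT3 probes are separated between the groups, while the STAT4, STAT5A and STAT5B points of the groups overlap.

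The other measured members of the family are the transcription factors STAT4, STAT5A, STAT5B and STAT6, which serve interleukin 12, prolactin, growth hormone and interleukin 4 among other ligands. STAT4 was at 6.90, 6.32 and 6.90 in control cells and 6.23, 6.52 and 6.23 after the siRNA (-0.38, SE 0.20), with overlapping groups. STAT5A differed by 0.28 (SE 0.28) and STAT5B by 0.01 (SE 0.21), less than or close to the standard error. STAT6 was even across arrays, at 8.58 to 8.64 in control cells and 8.69 to 8.74 after the siRNA (0.11, SE 0.11). None of these 4 was called, and none reached an unadjusted p under 0.05.

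Across all genes most differences were small, although more genes had a low unadjusted p than chance gives on average. Limma called 0 of 11179 genes (0%), and 1259 (11.3%) had an unadjusted p under 0.05, where chance gives 559 on average. That average carries no spread for genes that vary together, so whether the count exceeds chance was not tested. Of the 1259 genes 678 were higher after the siRNA (6.06% of genes tested) and 581 lower (5.2%). The middle of the distribution was narrow, with the 5th and 95th percentiles at -0.46 and 0.59 and a median standard error of 0.19. More genes lay over 1 log2 unit higher (91, 0.814%) than lower (16, 0.143%). For 889 genes (7.95%) all 3 siRNA arrays lay above all 3 control arrays, and for 999 (8.94%) all lay below. With array weights, which give siRNA 3 (0.36) and control 1 (0.468) the least weight and siRNA 1 (3.86) the most, 270 genes (2.42%) were called, 174 higher (1.56%) and 96 lower (0.859%), and in a fit of all 12 arrays 17 (0.152%). Leaving out 1 array moved the unadjusted counts widely. They were 368 higher and 313 lower without siRNA 1, 428 and 341 without siRNA 2, 436 and 316 without control 3, and 1096 and 869 without siRNA 3.

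**Figure D2:**
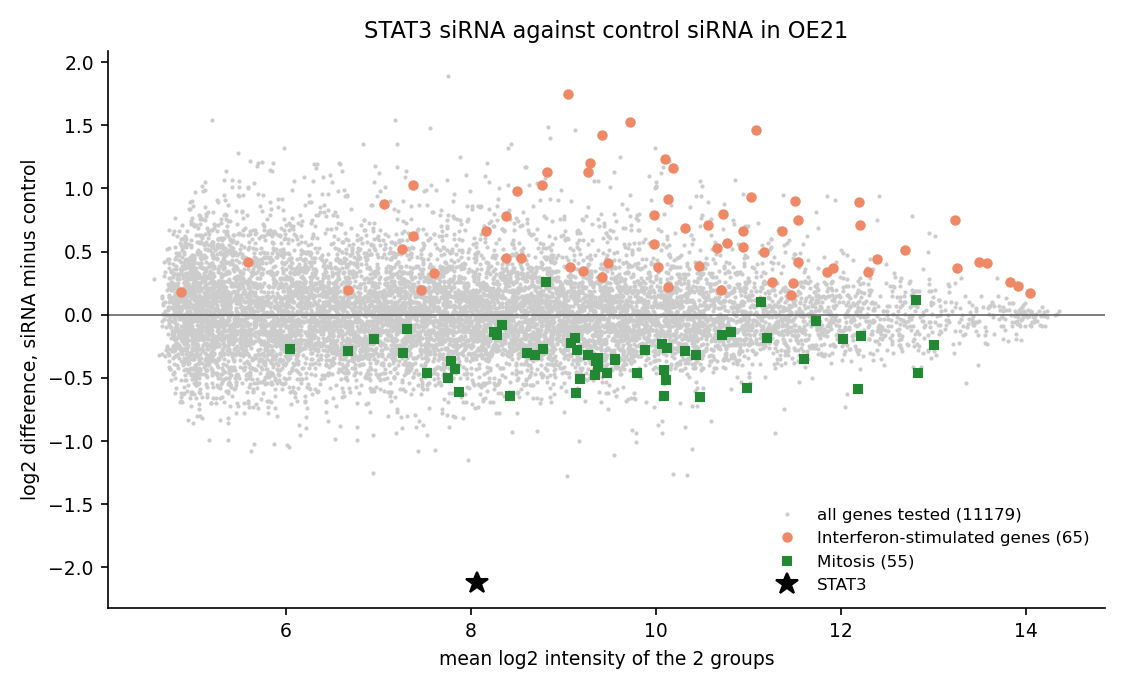
Each point is 1 gene, with its mean log2 intensity over the groups on the x axis and its siRNA minus control difference on the y axis, in OE21. The 65 interferon-stimulated genes (orange) all lie above 0, 52 of the 55 mitosis genes (green) lie below, and STAT3 (star) is the lowest point at -2.12.

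After STAT3, the lower genes with the smallest p-values were the following 11. MAEA, a subunit of the CTLH ubiquitin ligase, was at 9.79, 9.54 and 9.71 in control cells and 8.33, 8.58 and 8.30 after the siRNA (-1.28, SE 0.14). DENR, a factor for ribosome recycling and reinitiation, was at 11.04, 10.75 and 11.11 against 9.56, 9.73 and 9.78 (-1.27, SE 0.15). C8orf33, a gene of little known function, was at 10.63, 10.80 and 11.03 against 9.33, 9.52 and 9.81 (-1.26, SE 0.18). In each the 3 siRNA arrays lay more than the spread of the control arrays below them. IDE, the insulin-degrading protease, was at 7.92, 7.75 and 7.86 against 6.93, 6.97 and 6.97 (-0.89, SE 0.12). GLO1, which detoxifies methylglyoxal, differed by -1.01 (SE 0.15). FEZ2, an adaptor of the kinesin motor, differed by -1.11 (SE 0.18), and RTN4, the reticulon known as Nogo, by -0.94 (SE 0.16). SLC7A11, the cystine importer that feeds glutathione synthesis, differed by -0.95 (SE 0.16). GMFB, a regulator of actin branches, was at -0.87, NSMF, a synapse-to-nucleus messenger, at -0.92, and the zinc finger gene ZNF705A at -1.02. The adjusted p was 0.278 for MAEA and DENR and 0.30 for the others.

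The 12 higher genes with the smallest p-values follow. ALCAM, an immunoglobulin family adhesion molecule, was at 9.54, 9.56 and 9.37 in control cells and 10.70, 10.51 and 10.29 after the siRNA (1.01, SE 0.15). ITGA5, the alpha subunit of the fibronectin receptor, was at 7.56, 8.2 and 7.5 against 9.28, 9.13 and 8.89 (1.35, SE 0.22). JUN, a subunit of the transcription factor AP-1, was at 10.05, 9.84 and 9.95 against 10.87, 10.91 and 10.61 (0.85, SE 0.14). For these genes the lowest siRNA array was siRNA 3, and it still lay above every control array. MYD88, the adaptor of Toll-like and interleukin 1 receptors, was at 7.35, 7.60 and 7.34 against 8.17, 8.26 and 8.16 (0.77, SE 0.13). TFAP2C, a transcription factor of epidermis and breast, differed by 0.84 (SE 0.14). The others were AGFG1 (1.09), which takes part in vesicle transport, the neuronal membrane protein LINGO2 (0.99), and RP2 (0.95), which acts in protein trafficking to cilia. CLIC4, an intracellular chloride channel family member, was at 0.70, the nuclear receptor corepressor LCOR at 0.90, PDLIM7, a LIM protein of the actin cytoskeleton, at 1.03, and ATOSB at 0.96. All had an adjusted p of 0.30.

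**Figure D3:**
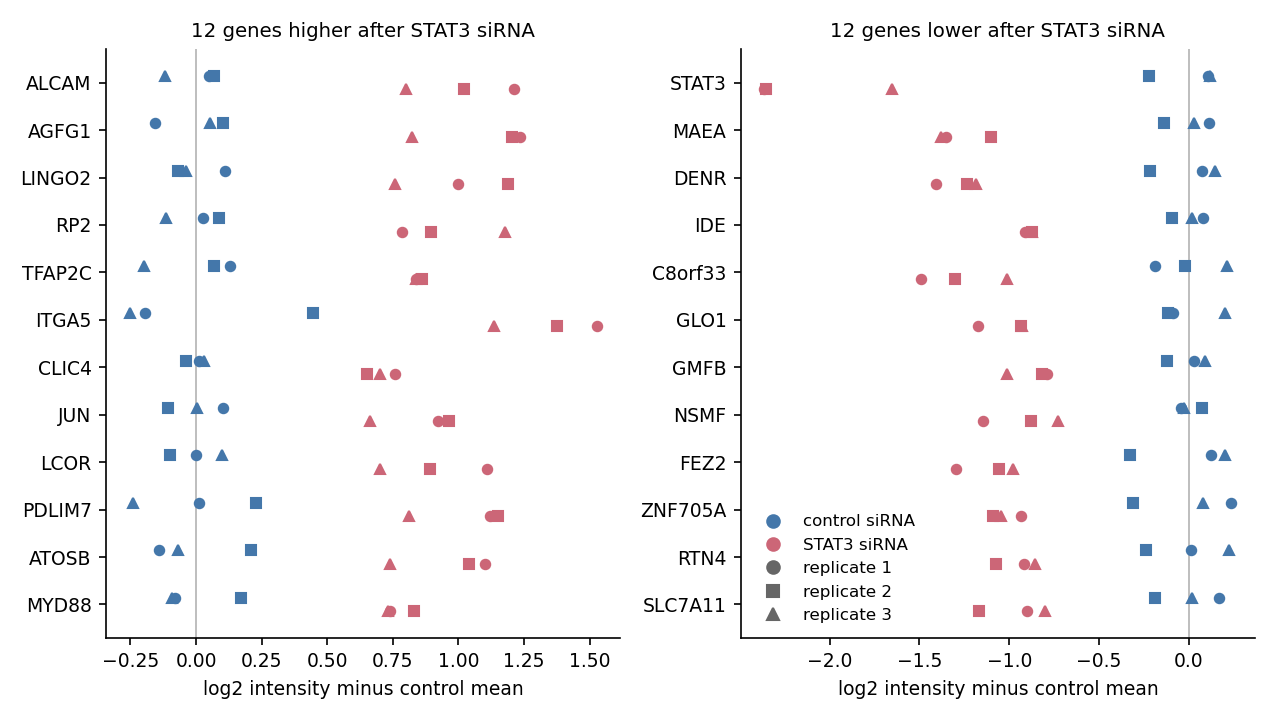
Log2 intensity of each OE21 array minus the mean of the control arrays (x axis) for the 12 genes with the smallest p in each direction (y axis), blue for control siRNA and red for STAT3 siRNA. In all 24 genes the groups do not overlap, which the choice of these genes required. STAT3 has the widest gap.

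Second probes of these genes gave an uneven picture. MAEA (-1.42), C8orf33 (-1.46), FEZ2 (-1.18), RTN4 (-1.10) and TFAP2C (0.82) had another probe with nearly the same difference. DENR had another, dimmer probe at 0.12 (SE 0.20), and CLIC4 had 2 others at -0.12 and -0.21, so for these genes the difference rests on 1 probe. Other probes read 0.35 and 0.10 for AGFG1, 0.34 for PDLIM7 and 0.53 and 0.19 for LCOR, all smaller than that of the probe used. Over all genes at an unadjusted p under 0.05, 343 of 391 other probes (87.7%) had the sign of the probe used, and over all genes tested 2524 of 3503 (72.1%) did.

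Some genes crossed the detection limit between the groups and give only a bound. CDA, the enzyme that deaminates cytidine, was detected on 0 control arrays and on all 3 siRNA arrays, with a point estimate of at least 1.96-fold higher. CHRNA2, a nicotinic receptor subunit (1.94-fold), RARRES1, a gene induced by retinoids (1.70-fold), SYNE3, a nuclear envelope protein (1.63-fold), and IQCN (1.55-fold) behaved alike. In the opposite direction CFAP263 (1.68-fold lower), the gap junction gene GJB1 (1.65-fold), QTGAL (1.63-fold), the homeobox gene SHOX2 (1.54-fold) and ZNF124 (1.49-fold) were detected on all 3 control arrays and on 0 siRNA arrays. For each bound the dim group took, on each array, the higher of its own signal and the lowest signal still detected there. SHOX2 read 0.33 when the 6 OE21 arrays were normalised on their own, a setting in which another probe may stand for a gene. The 17 genes called in the fit of all 12 arrays were 8 higher and 9 lower. Beside genes already named they held CHPF (1.35, adjusted p = 0.0428), which polymerises chondroitin, MTMR11 (1.13, adjusted p = 0.0474), a myotubularin family member, and DEPDC1B (-1.15, adjusted p = 0.0484), a regulator of adhesion at mitotic entry. CHPF read 6.46, 7.08 and 6.06 against 7.95, 7.90 and 7.79.

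Interferon-stimulated genes leaned in 1 direction as a list. This list and those below were chosen with earlier results of these data known, so their shares are descriptive and test nothing. Interferons act through receptors coupled to Janus kinases, and their target promoters carry the interferon-stimulated response element. All 65 tested members of a list of 70 lay above the control mean, against 49.5% of all genes, with a median of 0.53 and a range of 0.16 to 1.75. No member was called. With array weights 18 of the 65 were called higher, against 1.56% of all genes. An unadjusted p under 0.05 was reached by 29 (44.6%), against 6.06% of all genes. In 22 (33.8%) the groups did not overlap, against 7.95%. The count of 29 was 11 without control 2, without siRNA 1 or without siRNA 2, and 39 without siRNA 3. The mean level of the list was 0.04, -0.69 and -0.30 on the control arrays and 0.49, 0.50 and -0.04 on the siRNA arrays, relative to the mean of all 6. Control 1 thus lay above siRNA 3, so that the list also split by the array sets, and the spread within either group was about as wide as the gap between them. The array weights are lowest for the arrays that overlapped here, siRNA 3 (0.36) and control 1 (0.468). The median was 0.38 without control 2, 0.71 without siRNA 3 and 0.39 with the array sets as a block.

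Among members, GBP5, a guanylate-binding protein of inflammasome defence, was at 8.80, 8.07 and 7.64 in control cells and 10.29, 10.26 and 9.20 after the siRNA (1.75, SE 0.39). CXCL10, a chemokine for T cells, was at 8.55, 9.62 and 8.70 against 10.76, 10.25 and 10.44 (1.53, SE 0.30). ISG20, an exonuclease of RNA, was at 10.70, 10.24 and 10.09 against 12.12, 11.98 and 11.32 (1.46, SE 0.26). In these 3 genes no control array reached the lowest siRNA array. MX2, a GTPase that restricts viral nuclear entry, differed by 1.42 (SE 0.43), OASL by 1.23 (SE 0.27) and IRF7, the factor that amplifies interferon production, by 0.93 (SE 0.24). For RSAD2 (viperin), control 1 at 9.47 lay above siRNA 3 at 9.24 (1.20, SE 0.42), and the same arrays overlapped for BST2 (tetherin), at 10.57 and 9.63. The 3 brightest members, IFI6 (0.17), IFI27 (0.23) and MX1 (0.26), lay between 13.44 and 14.22 on all 6 arrays and overlapped. The smallest difference was that of the aminopeptidase LAP3 (0.16).

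Promoter windows of RefSeq (GRCh38.p14, the 250 bases before the gene start) were searched on both strands for the response element, spelled as GAAA, any 2 bases and GAAA. It was present in 35 of 73 windows (47.9%) of the 54 interferon-stimulated genes that matched, in 337 of 13130 windows (2.57%) of all genes tested and in 1061 of 35116 (3.02%) of all windows, some of which belong to 1 gene. Among the interferon-stimulated genes, the 31 with a match had a median difference of 0.56 and the 23 without one 0.38. Of all genes tested that are not on the list, 285 had a match, with a median of 0.03 and 22 (7.72%) at an unadjusted p under 0.05 and higher, against -0.01 and 506 of 8724 (5.8%) without. The windows of CXCL10, ISG20 and MYD88 are shown because these genes had a match and were among those with the largest or most even differences. The element is in capitals. No window is shown for GBP5, which had the largest difference on the list. In MYD88 the element overlaps a match to the gamma-activated sequence, TTCTCGGAA, which begins at -67 from the start. The elements begin at -221 in CXCL10, -69 in ISG20 and -61 in MYD88.
CXCL10 (chr4:76023498-76023747, minus strand): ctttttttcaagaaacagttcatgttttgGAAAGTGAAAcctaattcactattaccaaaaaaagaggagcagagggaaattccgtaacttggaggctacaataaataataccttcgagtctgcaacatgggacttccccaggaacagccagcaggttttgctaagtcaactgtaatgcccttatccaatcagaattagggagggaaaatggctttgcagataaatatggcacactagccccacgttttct
ISG20 (chr15:88638766-88639015, plus strand): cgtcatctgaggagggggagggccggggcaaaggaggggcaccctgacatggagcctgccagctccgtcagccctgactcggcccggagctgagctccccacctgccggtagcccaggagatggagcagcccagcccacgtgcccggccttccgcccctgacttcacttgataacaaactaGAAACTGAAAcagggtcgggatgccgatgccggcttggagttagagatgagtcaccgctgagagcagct
MYD88 (chr3:38138411-38138660, plus strand): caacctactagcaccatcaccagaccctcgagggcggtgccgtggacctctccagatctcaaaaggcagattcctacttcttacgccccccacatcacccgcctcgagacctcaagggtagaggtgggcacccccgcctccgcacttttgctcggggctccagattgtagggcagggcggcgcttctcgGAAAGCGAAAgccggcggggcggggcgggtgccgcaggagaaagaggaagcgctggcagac

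Genes for the sensing of double-stranded RNA, most of them also on the interferon list, leaned the same way. All 12 tested members lay above the control mean, against 49.5% of all genes (median 0.51), and 6 (50%) were higher at an unadjusted p under 0.05, against 6.06%. Beside OASL they held IFIH1, the cytosolic sensor MDA5, at 10.00, 9.29 and 9.45 against 10.56, 10.58 and 9.98 (0.79, SE 0.25), where control 1 lay above siRNA 3. OAS1, a synthetase of the messenger that activates RNase L, differed by 0.92 (SE 0.31) and the endosomal receptor TLR3 by 0.41 (SE 0.15). Their count of 6 was 1 without control 2, without siRNA 1 or without siRNA 2, 3 without control 3 and 9 without siRNA 3. Genes of class I antigen presentation were all 18 on the higher side (median 0.26), and 4 (22.2%) had an unadjusted p under 0.05, against 6.06% of all genes. The list's mean level also split by the array sets, at 0.01 (control 1), 0.32 (siRNA 1) and 0.29 (siRNA 2) against -0.27 (control 2), -0.21 (control 3) and -0.13 (siRNA 3). The peptide transporter subunits led, TAP1 at 11.95, 11.85 and 11.73 against 12.62, 12.72 and 12.33 (0.71, SE 0.15) and TAP2 at 0.46 (SE 0.13), neither with overlap. The peptide-loading factor TAPBP (0.57, SE 0.21) and the class I transactivator NLRC5 (0.85, SE 0.31, detected on 1 control array) overlapped. The class I heavy chain HLA-B (0.24) and beta-2 microglobulin B2M (0.08) differed by no more than about their standard errors of 0.23 and 0.14. The median of this list was 0.12 with the array sets as a block, 0.16 without control 2 and 0.46 without siRNA 3.

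Chemokines and targets of NF-kB, the transcription factor of inflammatory signalling, were higher in 16 of 19 tested members, with a median of 0.37, and 6 (31.6%) were so at an unadjusted p under 0.05, against 6.06% of all genes. CXCL1, a neutrophil chemokine, was at 8.63, 8.46 and 7.17 in control cells and 9.57, 9.83 and 9.33 after the siRNA (1.49, SE 0.39). CCL5, a chemokine for T cells and monocytes, was at 12.25, 11.72 and 11.85 against 13.06, 13.02 and 12.54 (0.94, SE 0.21). NFKBIZ, a nuclear IkB protein, was at 7.70, 7.53 and 7.59 against 8.24, 8.18 and 8.18 (0.59, SE 0.12). These 3 genes had no overlap between the groups. LTB, lymphotoxin beta, was detected on 1 control array and differed by 1.06 (SE 0.31). CXCL8, or interleukin 8, overlapped, at 9.13, 10.27 and 10.56 against 10.64, 10.29 and 12.10 (1.02, SE 0.55), and the NF-kB subunits NFKB1 (0.01) and NFKB2 (-0.07) were near 0. The mean level of the list ran from -0.44 on control 1 to 0.53 on siRNA 3, another order of arrays than for the interferon list, and the groups did not overlap. Its median was 0.26 without siRNA 3, 0.56 without siRNA 2 and 0.20 with no background correction. Of 11 interleukin 1 family genes, 8 were above the control mean (median 0.11), but 5 without siRNA 3, where the median was -0.05, and the median was 0.37 without siRNA 1. The antagonists of this family, IL36RN (0.87, SE 0.23) and IL1RN (0.47, SE 0.18), had the smallest p-values. IL36G (0.56, SE 0.30) and IL1B (1.12, SE 0.78) overlapped, IL1B at 8.0 on control 1 and 11.92 on siRNA 3. The NF-kB element, spelled as GGGA, any 4 bases and CC, was in 18 of 25 promoter windows of the list (72%) and in 3582 of 13130 of all genes tested (27.3%). The CXCL1 window is shown for the member with the largest difference, with 2 overlapping matches, at -79 and -78, in capitals.
CXCL1 (chr4:73869143-73869392, plus strand): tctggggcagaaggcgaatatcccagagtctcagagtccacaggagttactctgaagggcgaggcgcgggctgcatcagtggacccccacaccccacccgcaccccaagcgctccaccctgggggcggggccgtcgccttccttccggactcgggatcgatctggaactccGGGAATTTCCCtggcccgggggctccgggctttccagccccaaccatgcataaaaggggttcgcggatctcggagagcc

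Genes upstream of STAT3 and its inhibitors were not lower as groups. Of 20 receptors and kinases 16 lay above the control mean (median 0.17), with 4 (20%) higher at an unadjusted p under 0.05, against 6.06% of all genes. IL22RA1, the receptor subunit for interleukin 22, was at 5.52, 5.45 and 5.20 against 6.15, 6.37 and 5.80 (0.72, SE 0.19), and IL10RB, its shared partner, at 10.70, 10.87 and 10.24 against 11.38, 11.42 and 11.12 (0.70, SE 0.20). The receptor of type III interferon, IFNLR1, differed by 0.84 (SE 0.31). In these 3 genes all siRNA arrays lay above the control arrays. IL6ST, or gp130, overlapped, at 6.41, 7.99 and 7.20 against 8.11, 7.91 and 8.80 (1.07, SE 0.42). Of 13 feedback inhibitors 10 were above the control mean (median 0.21). Against 6.06% of all genes, 3 (23.1%) were higher at an unadjusted p under 0.05. They were SOCS1 (0.59, SE 0.22) and SOCS4 (0.37, SE 0.14), of the family that blocks cytokine receptors, and PIAS3 (0.38, SE 0.14), an inhibitor of STAT3 binding to DNA. SOCS2 differed by 0.31 (SE 0.14). The count of 3 was 0 without control 3 or without siRNA 1. SOCS3 did not pass the detection filter.

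Textbook STAT3 targets were not lower as a list and leaned slightly higher. Of 38 tested genes on a list of 54, 26 lay above the control mean and 12 below, with a median of 0.15, and 6 (15.8%) were higher and 1 (2.63%) lower at an unadjusted p under 0.05, against 6.06% and 5.2% of all genes. The lower one was HSPA1A, a heat shock protein, at 11.64, 11.91 and 11.61 against 11.32, 11.45 and 11.30 (-0.37, SE 0.14). Cyclin D1 (CCND1, 0.00), MYC (-0.06), MCL1 (-0.09), BCL2L1 (0.01) and PIM1 (0.08) lay close to 0. BIRC5, the survivin gene, was at -0.32. The list ranged from -0.53 for the phosphatase CDC25A to 1.07 for IL6ST. IRF1 was higher on every siRNA array, at 11.21, 11.29 and 11.13 against 10.82, 10.67 and 10.49 (0.54, SE 0.14). TWIST1 differed by 0.59 (SE 0.16) and SERPINB3, a squamous cell antigen, by 0.96 (SE 0.27), both without overlap. The count of 26 was 20 with array weights and 21 without control 1. The list's mean level was -0.29, 0.07 and -0.08 on the control arrays and 0.01, 0.02 and 0.28 on the siRNA arrays, so the groups overlapped. The gamma-activated sequence TTCNNNGAA was in 3 of 38 promoter windows of the targets (7.89%) and in 702 of 13130 of all genes tested (5.35%). Genes with it (660) and without it (8403) had medians of -0.01 and 0.00. The window of IRF1, a transcription factor of interferon responses, is shown with the match, at -124, in capitals.
IRF1 (chr5:132490774-132491023, minus strand): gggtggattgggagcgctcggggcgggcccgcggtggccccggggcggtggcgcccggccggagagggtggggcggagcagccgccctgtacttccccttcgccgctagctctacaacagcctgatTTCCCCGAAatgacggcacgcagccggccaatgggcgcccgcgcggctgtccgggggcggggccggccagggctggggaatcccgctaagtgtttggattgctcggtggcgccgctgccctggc

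Genes of mitosis were lower as a group, with 52 of 55 tested members below the control mean, against 50.5% of all genes, and a median of -0.30. No member was called, 17 (30.9%) were lower at an unadjusted p under 0.05, against 5.2% of all genes, and in 20 (36.4%) the siRNA arrays lay below all control arrays, against 8.94%. BUB1, a kinase of the spindle checkpoint, was at 8.65, 8.65 and 8.92 in control cells and 8.12, 7.88 and 8.30 after the siRNA (-0.64, SE 0.16). NEK2, a centrosome kinase, was at 10.07, 10.04 and 9.97 against 9.60, 9.61 and 9.49 (-0.46, SE 0.12). NCAPG, a condensin subunit, was at 10.35, 10.23 and 10.53 against 9.81, 9.81 and 9.94 (-0.52, SE 0.14), and CKS2, a subunit of cyclin-dependent kinases, differed by -0.59 (SE 0.16). These differences were small but even, with no overlap in any of the 4. The lowest was CDC25B, a phosphatase that activates CDK1 (-0.65, SE 0.23), also without overlap, and cyclin A2, CCNA2 (-0.64, SE 0.23), overlapped by siRNA 3 at 10.20 and control 1 at 10.18. The spindle motor KIF11 (0.26, SE 0.14) was 1 of the 3 above the control mean. The mean level was 0.05, 0.13 and 0.29 on the control arrays and -0.19, -0.27 and -0.01 on the siRNA arrays, without overlap. The count of 17 was 6 without control 3, 10 without control 2, 9 without siRNA 1 and 8 without siRNA 2, and the median ran from -0.41 to -0.26 over single arrays left out.

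The cell cycle homology region, spelled TTTGAA and bound by the DREAM complex in G2 and M phase genes, was in 26 of 58 promoter windows of mitosis genes (44.8%) and in 1256 of 13130 of all genes tested (9.57%). Mitosis genes with and without it did not differ in median, at -0.31 (24 genes) and -0.29 (22 genes). The window of NCAPG is shown with the match, at -35, in capitals.
NCAPG (chr4:17810729-17810978, plus strand): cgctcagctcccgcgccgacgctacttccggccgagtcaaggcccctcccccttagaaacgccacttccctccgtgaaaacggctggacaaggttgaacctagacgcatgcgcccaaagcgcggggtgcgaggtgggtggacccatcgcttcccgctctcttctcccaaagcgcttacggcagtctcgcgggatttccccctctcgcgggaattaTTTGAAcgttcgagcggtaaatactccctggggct

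Genes of S phase and DNA replication were below the control mean in 48 of 52 (median -0.23), but 3 (5.77%) were lower at an unadjusted p under 0.05, close to the 5.2% of all genes. E2F1, the transcription factor of the G1 to S transition (-0.54, SE 0.21), the replication licensing factor CDC6 (-0.61, SE 0.25) and the clamp loader subunit DSCC1 (-0.64, SE 0.25) were these 3, and POLA1 was at -0.46. Their mean level followed the array sets. It was -0.18 (control 1), -0.20 (siRNA 1) and -0.38 (siRNA 2) in the first set, against 0.28 (control 2), 0.25 (control 3) and 0.23 (siRNA 3) in the second. With the sets as a block the median was -0.05, and without siRNA 2 it was -0.10. Among 12 G1 cyclins and inhibitors the median was 0.00. CDKN1A, the inhibitor p21, was higher on every siRNA array, at 12.14, 12.31 and 12.30 against 11.95, 11.73 and 11.56 (0.51, SE 0.15). CDKN1C (0.62, SE 0.23) was near the detection limit, and CDK4 was at -0.31.

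Heat shock proteins and chaperones were below the control mean in 22 of 28 (median -0.27), with 7 (25%) lower at an unadjusted p under 0.05, against 5.2% of all genes, and 7 (25%) without overlap, against 8.94%. HSPA4, a cochaperone of the HSP110 class, was at 9.16, 9.18 and 9.07 in control cells and 8.47, 8.38 and 8.81 after the siRNA (-0.58, SE 0.15). DNAJB4 (-0.87, SE 0.31) and DNAJB1 (-0.36, SE 0.13), cochaperones of HSP70, and CHORDC1 (-0.65, SE 0.24), a partner of HSP90, also lay below all control arrays. The count of 7 was 2 without siRNA 1 and 3 without control 2, control 3 or siRNA 2. Targets of the antioxidant factor NRF2 were lower in 20 of 27 (median -0.13), 4 (14.8%) at an unadjusted p under 0.05, against 5.2% of all genes. SRXN1, which repairs peroxiredoxins, was at 11.02, 10.69 and 11.33 against 10.04, 10.10 and 10.38 (-0.84, SE 0.20), and glutathione reductase GSR differed by -0.62 (SE 0.20). HMOX1, heme oxygenase, went the other way, at 6.24, 6.59 and 5.71 against 6.90, 7.34 and 7.17 (0.95, SE 0.25). Of 32 genes of the unfolded protein response and of ATF4, 18 were above and 14 below (median 0.05). HSPA5, the endoplasmic reticulum chaperone BiP, was at 9.33, 9.42 and 9.14 against 9.99, 10.03 and 9.95 (0.69, SE 0.13), asparagine synthetase ASNS at -0.63 (SE 0.26) and the kinase EIF2AK3 at 0.49.

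Genes of adhesion and the pericellular matrix leaned upward. The fibronectin gene, FN1, did not pass the detection filter. Of 14 tested members of the integrin and fibronectin list 11 were above the control mean (median 0.25). Against 6.06% of all genes, 3 (21.4%) were higher at an unadjusted p under 0.05. Beside ITGA5 these were TLN1, talin, which links integrins to actin, at 6.77, 7.17 and 6.07 against 7.65, 7.45 and 7.62 (0.90, SE 0.27), and ITGB5 at 10.01, 10.70 and 10.12 against 10.88, 10.78 and 11.04 (0.63, SE 0.21). ITGA3 differed by 0.30 (SE 0.14). The mean level of the integrin list did not overlap, from -0.24 to -0.05 on the control arrays and 0.07 to 0.18 on the siRNA arrays. In the lists that follow the groups overlapped. The mean level of metalloproteinase genes was 0.31 on control 2 and 0.14 on siRNA 1. That of mesenchymal genes was 0.1 on control 2 and -0.09 on siRNA 2. That of AP-1 genes was 0.3 on control 3 and -0.1 on siRNA 1. Of 15 metalloproteinase and plasminogen genes 12 were above (median 0.43, 0.84 without control 2), with MMP28 at 8.0, 8.40 and 7.59 against 9.51, 9.35 and 8.65 (1.17, SE 0.29), the inhibitor TIMP2 at 0.70 (SE 0.20) and the sheddase ADAM17 at 0.38 (SE 0.15). MMP7 (0.62, SE 0.34) overlapped. Of 19 mesenchymal transition genes 13 were above (median 0.23), among them SERPINE2 (0.69, SE 0.21) and WNT5A (0.45, SE 0.20). Of 20 AP-1 and immediate early genes 18 were above (median 0.17). An unadjusted p under 0.05 was reached by 2 (10%), JUN and JUND (0.59, SE 0.21), against 6.06% of all genes. IER3 (0.40) and FOS (0.42) overlapped, and the median of this list was -0.07 without siRNA 3.

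Squamous differentiation genes gave 28 of 42 above the control mean (median 0.15), 5 (11.9%) at an unadjusted p under 0.05, against 6.06% of all genes. KRT1, a suprabasal keratin, read 4.96, 4.71 and 4.52 against 5.37, 5.88 and 5.35 (0.80, SE 0.20) and was near the detection limit, as was the differentiation factor GRHL1 (0.67, SE 0.22). The kallikrein KLK10 differed by 0.56 (SE 0.20). The median ran from 0.04 without control 1 to 0.36 without control 2. Basal keratinocyte and hemidesmosome genes (9 of 11 above, median 0.24) and desmosome genes (8 of 10 above, median 0.22) had 0 members at an unadjusted p under 0.05. ITGB4 (0.25), CD151 (0.24) and DST (-0.46, SE 0.23) stood for the former and PKP3 (0.46), desmoplakin DSP (0.74, SE 0.38), JUP (0.25) and DSG2 (-0.15) for the latter. Both lists split by the array sets. Basal genes had mean levels of 0.18, 0.28 and 0.33 in the first set and -0.13, -0.27 and -0.38 in the second, in the array order given for the sets above. Desmosome genes were at 0.17, 0.20 and 0.35 in the first set and -0.13, -0.36 and -0.22 in the second. With the sets as a block the desmosome median was -0.03. Of 9 EGFR family members and ligands 4 were above (median -0.02), with betacellulin, BTC, at 0.65 (SE 0.27), ERBB3 at 0.42, ERBB2 at 0.34 and NRG1 at -0.38 (SE 0.53). The median of this list was -0.38 without siRNA 3 and 0.23 without control 2, and with the array sets as a block 8 of the 9 genes were above.

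Metabolism, survival and translation gave lists of both directions. Hypoxia and glycolysis genes were above in 26 of 32 (median 0.13), 6 (18.8%) at an unadjusted p under 0.05, against 6.06% of all genes. The list held the glycolytic regulator PFKFB4 at 0.68 (SE 0.21), the collagen hydroxylase subunit P4HA2 at 0.54 (SE 0.18), ENO2 at 1.19 (SE 0.43) and NDRG1 at 0.78 (SE 0.29). Control 1, with a mean level of 0.13, lay above siRNA 3 with -0.18, so the groups overlapped. The list split by the array sets, with 0.13, 0.25 and 0.36 in the first and -0.28, -0.28 and -0.18 in the second. The count of 6 was 1 without control 2, control 3, siRNA 1 or siRNA 2, and 10 without siRNA 3. Cholesterol synthesis genes were above in 18 of 23 (median 0.12, -0.03 with the array sets as a block), with DHCR7 at 0.27, TM7SF2 at 0.34, HSD17B7 at 0.21 and MVK at -0.22, none at an unadjusted p under 0.05. Their mean level followed the array sets too, at 0.27, 0.22 and 0.26 in the first and -0.30, -0.17 and -0.27 in the second. Respiratory chain genes were below in 43 of 54 by a small amount (median -0.09), and 14 (25.9%) lay below all control arrays, against 8.94% of all genes. Yet only 2 (3.7%) were lower at an unadjusted p under 0.05, against 5.2% of all genes. ATP5MC3, a subunit of ATP synthase, was at 6.71, 6.51 and 6.70 against 6.02, 6.11 and 5.96 (-0.61, SE 0.13), UQCRB at -0.37, NDUFB6 at -0.29 and NDUFC2, detected on 1 control array, at 0.74. Of 22 p53 targets 14 were above (median 0.10), with TP53I3 at 0.48, TNFRSF10B at 0.51 and PMAIP1 at 0.47. Of 28 apoptosis regulators 18 were above (median 0.08), with the pore-forming BAK1 at 0.51 (SE 0.15), and the protective BCL2L2 at 0.38 (SE 0.12) and BIRC2 at 0.36 (SE 0.12), all 3 without overlap. Ribosomal proteins were level (26 above and 41 below, median -0.01), with RPL7 at -0.32, RPS7 at -0.41, RPL4 at -0.28 and RPL23 at -0.23. Of 11 genes of the RNA interference machinery 5 were above and 6 below (median -0.15), with PRKRA at -0.31 (SE 0.12), AGO1 at -0.33, DICER1 at -0.31 and AGO3 at -0.28.

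**Figure D4:**
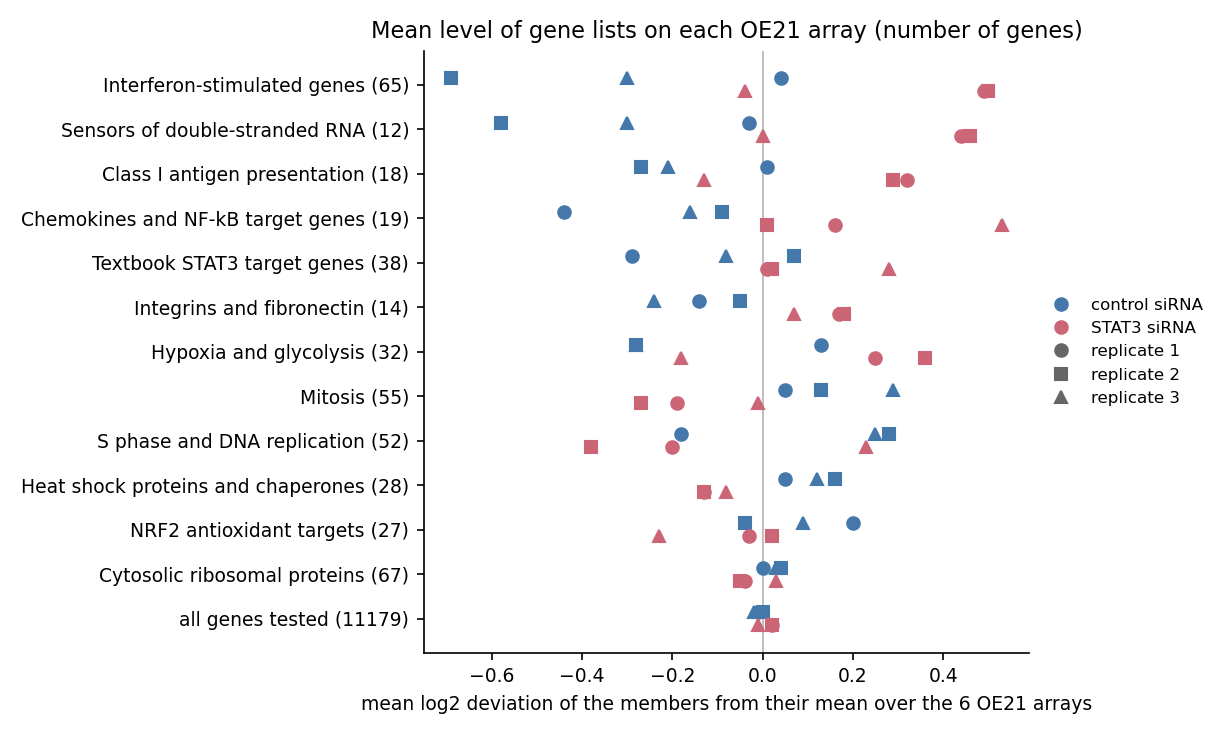
Mean log2 deviation of a list's genes from their mean over the 6 OE21 arrays (x axis), for 12 lists and all genes tested (y axis), blue for control siRNA and red for STAT3 siRNA. Mitosis, integrins, heat shock proteins and chemokines separate the groups, while for interferon-stimulated genes control 1 (0.04) lies above siRNA 3 (-0.04) and S phase genes follow the array sets.

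Squamous markers were present in both groups. All 7 squamous markers on the array passed the detection filter. Keratin 5, KRT5, read 12 to 13.46 and keratin 14, KRT14, 10.39 to 12.23 over the 6 arrays, with SFN (0.16), TRIM29 (0.31) and PKP1 (0.28) close between the groups. The markers followed the array sets, with a mean level of 0.35, 0.33 and 0.52 in the first and -0.19, -0.51 and -0.51 in the second. Of 21 columnar and intestinal markers 5 passed, with FOXA2 at -0.56 (SE 0.58), KRT18 at -0.20, AGR2 at 0.37 and CEACAM6 at -0.45 (SE 0.90), and CDX1, CDX2 and KRT20 did not. Of 10 fibroblast markers COL1A1 (0.13) and COL1A2 (0.11) passed, both near the detection limit. Of 13 leukocyte markers 6 passed, among them CD68 (0.49), CSF1R (0.36), CD14 (0.20) and ITGAM (0.64, SE 0.21), while PTPRC, CD3D and CD3E did not. Their mean level ran from -0.41 to 0.01 on the control arrays and from 0.09 to 0.22 on the siRNA arrays. Of 9 endothelial markers VWF passed (0.58, SE 0.29). The part of these markers in the results was not tested.

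The same genes were compared with OE33, where the pool was given with another reagent, DharmaFECT, so that line and reagent cannot be told apart. STAT3 differed there by -0.55 (SE 0.30). Its brightest probe overlapped, at 9.04, 10.26 and 9.36 on the OE33 control arrays and 9.1, 8.87 and 9.05 after the siRNA. Another probe overlapped too, at 7.53, 8.36 and 7.76 against 7.91, 7.39 and 7.49. The dimmest did not, at 7.59, 7.9 and 7.54 against 7.15, 7.21 and 7.04. The OE33 minus OE21 difference of effects for STAT3 was 1.58 (SE 0.41), with adjusted p = 0.574. Of the difference, limma called 0 of 12322 genes (0%), and 829 (6.73%) had an unadjusted p under 0.05. Among the 12 top higher genes of OE21, 6 had the same sign in OE33, and among the 12 top lower ones 10 did. LINGO2 and ZNF705A, counted there as of opposite sign, were detected on 0 OE33 arrays, so their sign in OE33 carries no information. SLC7A11 was the lower gene nearest to its OE21 value in OE33, at -0.64. MAEA (-0.06), DENR (-0.21), ITGA5 (-0.18) and JUN (-0.25) were near 0 or small there. Of the 60 interferon-stimulated genes tested in both lines, 46 lay below the OE33 controls, against 52.3% of all genes, with a median of -0.15. The 65 genes had 28 (43.1%) at an unadjusted p under 0.05 for the difference of effects, with a smallest adjusted p of 0.457. ISG20 was at -0.44, OASL at -0.39 and RSAD2 at -0.65 in OE33, and CXCL10 did not pass the detection filter there. Of 55 mitosis genes 45 lay above the OE33 controls, against 47.7% of all genes (median 0.14), and 12 (21.8%) had an unadjusted p under 0.05 for the difference. Of 18 chemokine and NF-kB genes 15 lay below them (median -0.12). With array weights 229 genes were called for the difference.

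**Figure D5:**
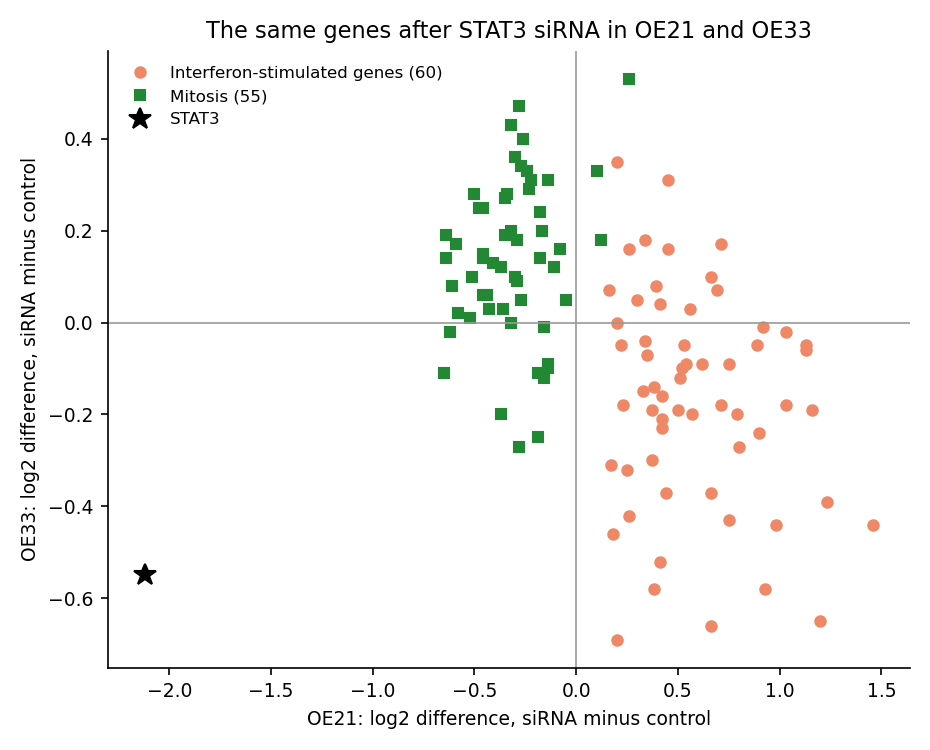
Each point is 1 gene tested in both lines, with its siRNA minus control log2 difference in OE21 on the x axis and in OE33 on the y axis. Of 60 interferon-stimulated genes (orange) 46 lie below 0 in OE33, of 55 mitosis genes (green) 45 lie above 0, and STAT3 (star) is at -2.12 and -0.55.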

How the data were processed

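Expression was measured on Illumina bead arrays in 12 samples, of which the 6 of OE21 are the subject. The authors deposited non-normalised probe intensities with a detection p-value for each probe and array, and, in a second table, normalised intensities. The method behind the normalised values and the detection p-values was not stated in the labels or headers. The table has 47323 probes, 4 of them incomplete and not used, and 30113 had 1 symbol in the platform annotation, 8 several and 17202 none.

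Intensities of all 12 arrays were background-corrected with neqc (limma 3.58.1, R 4.3.3, offset 16, background inferred from the detection p-values), quantile-normalised and log2-transformed. Probes with a detection p under 0.01 on 3 or more of the 6 arrays entered, and the probe with the highest mean over the 12 arrays stood for a gene. The 3 siRNA and 3 control arrays were compared with limma's moderated test, two-sided, with Benjamini-Hochberg adjustment over all genes. The difference between lines was an interaction term on all 12 arrays. An exact permutation test of 3 against 3 cannot go below 0.1. Precision is limited by the number of arrays. The procedure was tested on simulated data.

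Genes named are the 12 with the smallest p in each direction among those detected in both groups and without overlap, the 5 in each direction that give a bound, the STAT family, those called on 12 arrays, and 4 per list by p. Other genes named were chosen after their values were seen, as were those under other observations. The members and lists were chosen with earlier results of these data known. Alternatives were other background corrections, scalings and filters, the authors' values, array weights, trend and robust fits, each probe on its own, blocks, and leaving out each array. Promoter windows are from RefSeq (GRCh38.p14). Some items are not reported here.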

Additional observations from a re-analysis of the deposited data

How the results depend on the processing

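Of the 94 recomputed values for the counts of genes and for STAT3, 77 kept their direction and side of the threshold, 11 passed it or grew by over 1.5 times and 6 shrank as far. The count of called genes was 0 except in the fit of 12 arrays (17), with array weights (270) and with each probe on its own (1), and 0 in every fit that left out 1 array. Genes at an unadjusted p under 0.05 numbered 1816 higher and 1736 lower with array weights, 1130 and 1020 with the array sets as a block, and from 368 to 1096 higher and from 313 to 869 lower with 1 array left out. The sets were seen in these data and the cause was not tested. For the difference between lines, array weights called 229 genes. No background correction, the authors' values, the offset of 50, the trend and robust fit, the replicate block and each array left out called 0, and other settings were not run. STAT3 was at -2.12 with adjusted p = 0.0222 in the fit of 12 arrays and -2.29 with adjusted p = 0.0264 with array weights, and over all alternatives its adjusted p ran from 0.0222 to 0.781. Without background correction it was at -1.52, and the normalised values of the authors gave -1.53. With 1 array left out it ran from -2.36 to -2.0. Replicate numbers did not pair all the samples. The correlations of deviations were 0.45 for replicate 1 and 0.50 for replicate 3, but -0.40 for replicate 2. Control 1 matched siRNA 2 best. With the replicate block 856 genes were higher and 665 lower at an unadjusted p under 0.05, and 0 were called. Of 2840 values for named genes 21 changed sign. SHOX2 did so when the 6 arrays were normalised alone (0.33), where another probe may stand for the gene. All other changes were in genes with differences within about 1 standard error. With the array sets as a block these were STAT5B (-0.02), NRG1 (0.07), PKP1 (-0.02), KRT18 (0.08), AGR2 (-0.12), CEACAM6 (0.36) and CD14 (-0.11). With 1 array left out STAT5B ran from -0.11 to 0.19, PKP1 from -0.01 to 0.68, AGR2 from -0.09 to 1.16, CEACAM6 from -1.40 to 0.09, COL1A2 from -0.10 to 0.35, COL1A1 from -0.13 to 0.54 and CD14 from -0.05 to 0.52. Probes near the detection limit, such as those that give only a bound, have differences that the background correction sets in part.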

Other observations

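Genes outside the lists were among those with the largest differences, and the following were chosen after their values were seen. SLC15A3, a lysosomal transporter of histidine and peptides in innate immunity, was at 6.87, 5.94 and 6.43 in control cells and 8.28, 8.30 and 7.27 after the siRNA (1.54, SE 0.35). AIM2, a sensor of cytosolic DNA, was at 9.93, 9.29 and 9.25 against 10.86, 10.99 and 10.12 (1.17, SE 0.29). Neither overlapped. The complement proteases C1R (1.40, SE 0.54) and C1S (1.25, SE 0.58) and the death ligand TNFSF10 (1.32, SE 0.63) had the array order of the interferon-stimulated genes, with control 1 above siRNA 3. Other genes without overlap were SUGCT (1.48, SE 0.36), a CoA transferase, the synaptic scaffold SHANK2 (1.35, SE 0.32), the focal adhesion scaffold NEDD9 (1.32, SE 0.40), the retinol dehydrogenase RDH16 (1.25, SE 0.28) and the adhesion molecule CEACAM1 (1.17, SE 0.37). SCG5, a chaperone of prohormone convertase, had the largest increase of any gene (1.89, SE 0.60), yet control 2 at 8.04 lay above siRNA 2 at 7.95. Of the 91 genes over 1 log2 unit higher, 43 overlapped between the groups, against 2 of the 16 that were as far lower.

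Among the lower genes, 2 neurofilament subunits, NEFL (-1.08, SE 0.44) and NEFH (-1.03, SE 0.24), lay below all control arrays. NEFH read 6.53, 6.04 and 6.99 in control cells and 5.51, 5.50 and 5.48 after the siRNA. BCL7B, a subunit of the SWI/SNF chromatin remodeller, was at 7.31, 7.31 and 8.10 against 5.92, 6.57 and 6.46 (-1.25, SE 0.28). TBL1X, a subunit of the NCoR corepressor complex, differed by -1.05 (SE 0.33), TPRG1L by -1.06 (SE 0.33) and CNRIP1, which binds the cannabinoid receptor, by -1.08 (SE 0.24). None of the genes in this section was called by limma without array weights, with adjusted p from 0.301 to 0.489. With array weights SLC15A3, AIM2, C1R, SUGCT, RDH16, BCL7B and CNRIP1 were called, with adjusted p from 0.0470 to 0.0493.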
